A study of Mus musculus with 2 samples.

Results

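Genes that mark tuft cells, a rare chemosensory cell of the gut epithelium, were examined in RNA from TR1 cells (type 1 regulatory T cells, CD4 T cells that make IL-10) taken from mouse small intestine. The 8 genes Trpm5, Dclk1, Pou2f3, Il25, Ptgs1, Avil, Gfi1b and Sh2d6 were taken by symbol from probe sets that the array annotation pairs with 1 gene. A value was obtained for 7 of the 8, out of 19937 genes in all, each from 1 probe set. No probe set was named Ptgs1 in the annotation used here, so this gene has no value. The impaired group was 1 array of TR1 cells from CD4-DNIL-10R transgenic mice, which carry a dominant-negative IL-10 receptor whose name places it under Cd4 elements, which drive expression in T cells. The wildtype group was 1 array of TR1 cells from mice with an intact receptor alpha chain. Both groups came from mice given anti-CD3 antibody, at 15 µg in each of 2 intraperitoneal injections on alternate days, and killed 4 or 48 hours after the last one. The labels do not tie a time to an array, and they do not give the age, strain, sort or number of mice behind either array.

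Tuft cells depend on the transcription factor POU2F3 for their formation. They sense luminal compounds through a cascade shared with taste cells, in which a G protein activates phospholipase C, calcium is released and the cation channel TRPM5 opens. In the small intestine they are the main epithelial source of IL-25, which drives group 2 innate lymphoid cells (ILC2) to make IL-13, and IL-13 in turn expands tuft and goblet cells. They also make prostaglandins, cysteinyl leukotrienes and acetylcholine.

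Of the 7 measured tuft cell genes, 6 were brighter in the impaired array, by small amounts, and Il25 was equal in both. Each value is a log2 RMA expression, and each difference is impaired minus wildtype. The 7 differences lay between 0 and 0.58, with a median of 0.30 (1.23-fold). None of them reached 2-fold or 1.5-fold. Of all genes, 1.02% were at least 2-fold apart, 0.828% were at least 2-fold brighter in the impaired array and 3.58% at least 1.5-fold. With 1 array in each group there was no spread between replicates, so none of these differences could be tested.

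**Figure D1:**
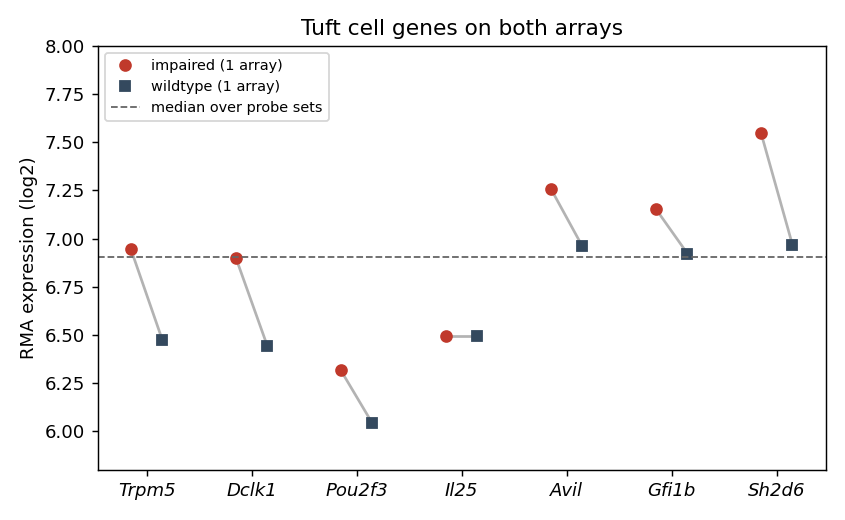
RMA expression (log2, y axis) of the 7 measured tuft cell genes, with 1 point for the impaired array (circle) and 1 for the wildtype array (square). The dashed line (6.91) is the middle of all probe sets, each averaged over both arrays. The circle lies above the square in 6 genes, and both lie at 6.49 for Il25.

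Trpm5, the cation channel at the end of the taste cascade, was at 6.94 in the impaired array and 6.47 in the wildtype array (probe set 10569399), a difference of 0.47 or 1.39-fold. The impaired value lay just above the floor and the wildtype value below it. The floor was 6.91, which is the middle of the probe sets when each is averaged over both arrays, and a gene passed it when its brighter array did. A difference higher than that of Trpm5 was found in 5.27% of all genes.

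Pou2f3, the factor that tuft cells need to form, was at 6.32 in the impaired array and 6.04 in the wildtype array (probe set 10592705), a difference of 0.28 or 1.21-fold. Both values lay below the floor. Gfi1b, a zinc finger repressor that tuft cells share with megakaryocytes and red cell precursors, was at 7.15 in the impaired array and 6.92 in the wildtype array (probe set 10481304). Its difference was 0.23, or 1.17-fold, and both values passed the floor. Of the 8 markers of megakaryocytes, platelets and erythroid cells with a value, 1 passed the floor, and their median difference was 0.06. The part of these cells in the difference of Gfi1b was not tested.

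Il25, the cytokine by which tuft cells call on ILC2, was at 6.49 in both arrays (probe set 10415127), a difference of 0.00 and below the floor in both. Of the 7 it was the only gene that was not brighter in the impaired array. Dclk1, a microtubule-associated kinase used to mark tuft cells, was at 6.90 in the impaired array and 6.44 in the wildtype array (probe set 10492136), a difference of 0.46 or 1.37-fold. Dclk1 just missed the floor in the impaired array. Neurons express Dclk1 as well, and of 9 markers of enteric neurons and glia with a value 1 passed the floor, with a median difference of 0.10. Dclk1 missed the same floor, and the part of neurons in its difference was not tested.

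Avil, which encodes advillin, an actin-binding protein of the villin family that is used as a tuft cell marker, was at 7.26 in the impaired array and 6.96 in the wildtype array (probe set 10366774). Its difference of 0.30, or 1.23-fold, was the median of the 7 genes. Sh2d6, which encodes an SH2 domain protein found in tuft cells, was at 7.55 in the impaired array and 6.97 in the wildtype array (probe set 10545425). Its difference of 0.58, or 1.497-fold, was the highest of the 7, and 3.60% of all genes had a higher one. Both arrays passed the floor for Avil and for Sh2d6.

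All 7 genes were thus measured near the floor. In the impaired array they spanned 6.32 to 7.55, against 6.04 to 6.97 in the wildtype array. Of the 7, 4 passed the floor (Trpm5, Avil, Gfi1b and Sh2d6), which 55.8% of all genes did, and 0 passed a stricter floor at 8.86, the 75th percentile of the averaged probe sets. Just outside the first floor lay Dclk1, at 6.90 in its brighter array, and just inside it lay Trpm5, at 6.94. No detection call was at hand, so the values do not show whether RNA of these genes was present in either sample.

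The direction of the 6 differences has to be read against genes of like brightness. Over all genes 51.5% had a difference above 0. Over the 4059 genes whose mean of both arrays lay within the range of the tuft cell genes (6.18 to 7.26), 68.7% had one, 3.87% were at least 1.5-fold brighter in the impaired array and 0.591% were at least 2-fold apart. Their median difference was 0.11, against 0.01 over all genes. The middle 95% of those 4059 differences ran from -0.57 to 0.66, and all 7 tuft cell genes lay inside it. Pou2f3, Avil and Gfi1b were exceeded by 20.3%, 17.6% and 26.4% of these genes. Sh2d6, Trpm5 and Dclk1 were exceeded by 3.92%, 6.70% and 7.10%.

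**Figure D2:**
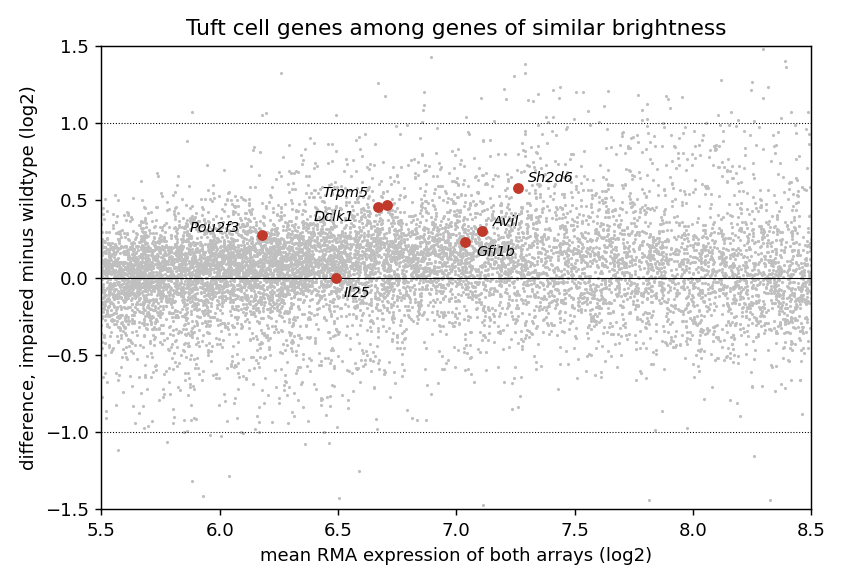
Difference between the arrays (impaired minus wildtype, log2, y axis) against the mean RMA expression of both arrays (log2, x axis) for all genes in the plotted range (grey) and the 7 tuft cell genes (red). Dotted lines mark 2-fold. The tuft cell genes lie between 0 and 0.58, within the cloud of genes of like brightness.

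Promoter windows from 250 bases before to 50 bases after a transcript's start (RefSeq, GRCm38.p6) were at hand for 6 of the 8 genes, as 7 windows, since Dclk1 had 2. Pou2f3 and Il25 had none, and Ptgs1 is among the 6 although it has no expression value. The octamer ATGCAAAT, the motif bound by POU class 2 factors such as POU2F3, was in 0 of the 7 windows on either strand, against 1.74% of all 32851 windows. The shorter ATGCAAA, which is part of the octamer and was chosen after the windows were seen, was in 1 of the 7, that of Avil, against 4.63% of all windows. It occurred 2 times there, once on each strand, with first bases 115 and 15 bases before the start. The window of Avil is shown for these matches and that of Sh2d6 because this gene had the highest difference. Capitals mark ATGCAAA or its reverse complement TTTGCAT, and both windows are written 5′ to 3′ on the gene's strand (Avil, plus strand, chr10:127000459-127000758; Sh2d6, minus strand, chr6:72519987-72520286).
Avil: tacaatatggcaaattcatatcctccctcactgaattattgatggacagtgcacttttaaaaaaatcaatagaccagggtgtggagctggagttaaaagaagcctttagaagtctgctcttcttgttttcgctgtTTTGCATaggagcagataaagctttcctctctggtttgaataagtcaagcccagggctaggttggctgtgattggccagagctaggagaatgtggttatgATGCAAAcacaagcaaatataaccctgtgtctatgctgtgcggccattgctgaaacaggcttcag
Sh2d6: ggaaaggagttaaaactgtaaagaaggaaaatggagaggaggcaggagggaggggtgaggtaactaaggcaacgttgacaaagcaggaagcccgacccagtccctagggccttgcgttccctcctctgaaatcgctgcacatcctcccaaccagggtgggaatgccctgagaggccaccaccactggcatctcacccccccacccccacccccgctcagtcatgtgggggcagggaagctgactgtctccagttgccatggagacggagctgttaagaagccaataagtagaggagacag
A match to these letters is a description of the window and not a measured binding site.

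The 13 genes of the taste cascade around TRPM5 and of related receptors and channels had a median difference of 0.02. Of these, 8 were above 0 and 5 below, and 0 were 2-fold apart. Above 0 lay 51.5% of all genes, and 68.7% of those within the brightness range of the tuft cell genes, which not all 13 shared. Of the 13, 4 passed the floor, 2 of them above 0 and 2 below, and over these the median was 0.13. The other genes had dim probe sets, and the part of this in the lower median was not tested. Rgs13, a regulator of G protein signalling, stood highest at 6.76 in the impaired array and 6.04 in the wildtype array (0.71), below the floor in both. Itpr3, the calcium release channel of the cascade, was at 9.79 in the impaired array and 9.33 in the wildtype array (0.46). Trpm4, a related channel, differed by 0.29, and Vmn2r26, a vomeronasal receptor reported in tuft cells, by -0.29. Plcb2, the phospholipase of the cascade, which leukocytes also express, was at 9.99 in the impaired array and 10.01 in the wildtype array (-0.02). Chosen after their values were seen, Gnat3 and Gng13, which encode the G protein subunits gustducin alpha and gamma 13, differed by -0.13 and 0.02, and Sucnr1, the succinate receptor of small intestinal tuft cells, by -0.16. All 3 lay below the floor in both arrays.

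Of the 8 genes for eicosanoid and acetylcholine synthesis, 7 were above 0 and 1 was below, against 51.5% of all genes above 0. Within the brightness range of the tuft cell genes, which not all 8 shared, the share above 0 was 68.7%. The median of the 8 was 0.24, or 0.42 over the 4 that passed the floor. Ptgs2 and Alox5 passed it only in the impaired array, so the 0.42 depends on the direction of their differences. Alox5ap alone passed 2-fold, against 0.828% of all genes at least 2-fold brighter in the impaired array. Alox5ap, which encodes the protein that presents arachidonate to 5-lipoxygenase, was at 8.94 in the impaired array and 7.31 in the wildtype array, a difference of 1.62 or 3.08-fold. Alox5, the 5-lipoxygenase itself, was at 6.97 in the impaired array and 6.42 in the wildtype array (0.55). Ptgs2, the inducible cyclooxygenase, differed by 0.29. Chat, which makes acetylcholine, differed by 0.25 and lay below the floor in both arrays. Hpgds, the haematopoietic prostaglandin D synthase, was at 8.20 in the impaired array and 8.39 in the wildtype array (-0.19). Neutrophils and other myeloid cells also carry Alox5ap and Alox5, and all 10 neutrophil markers with a value were brighter in the impaired array, with a median of 1.80 and summed linear signals of 4190 in the impaired array and 1229 in the wildtype array. Their part in the differences of Alox5ap and Alox5 was not tested.

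Further genes known from tuft cells were mostly brighter in the impaired array. Of 28 with a value, 23 were above 0 and 5 below, 2 were 2-fold brighter, 5 were at least 1.5-fold brighter, and the median was 0.23. Shares over all genes were 51.5% above 0, 0.828% at least 2-fold brighter and 3.58% at least 1.5-fold brighter. Krt18, a keratin of simple epithelia, was at 11.15 in the impaired array and 10.11 in the wildtype array, a difference of 1.04. Nrgn, which encodes the calmodulin-binding neurogranin, was at 8.70 in the impaired array and 7.68 in the wildtype array (1.02). Cd24a, a surface glycoprotein of tuft cells and of other secretory epithelium, differed by 0.95, and Bcl2l14 by 0.80. Rac2 (0.17) and Ptprc (-0.07), which tuft cells and leukocytes share, were at 13.57 and 13.00 in the impaired array, against 13.39 and 13.06 in the wildtype array. Chosen after their values were seen, Sh2d7 differed by 0.65 and Spib, a transcription factor of tuft, M and B cells, by 0.37.

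**Figure D3:**
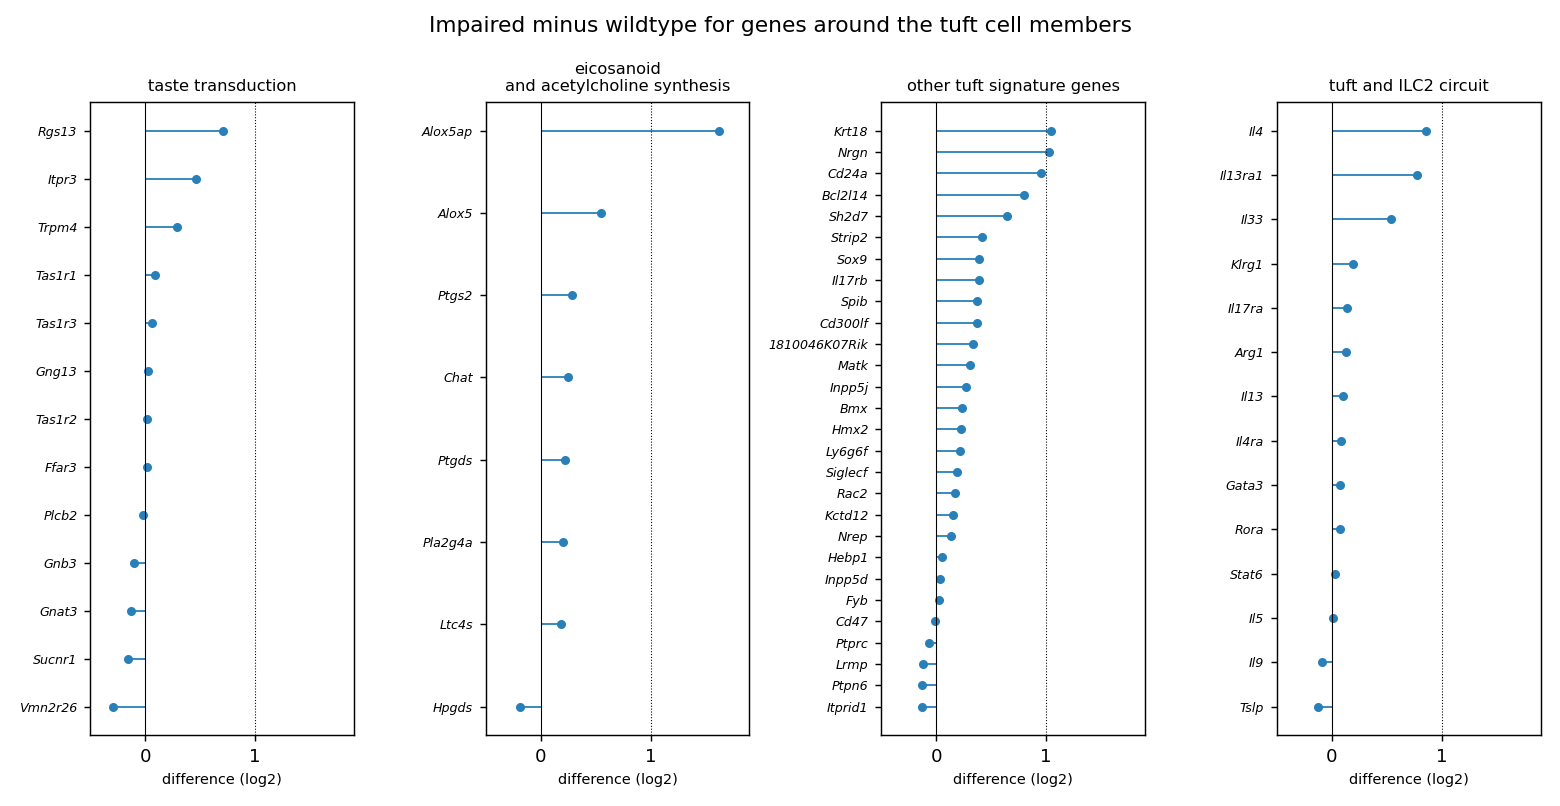
Difference between the arrays (impaired minus wildtype, log2, x axis) for each gene with a value in 4 lists around the tuft cell genes, with 1 point a gene. The dotted line marks 2-fold. Alox5ap (1.62), Krt18 (1.04) and Nrgn (1.02) pass it, and the list of the taste cascade and related receptors and channels has its median at 0.02.

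The circuit between tuft cells and ILC2 held mostly small differences. Of 14 genes with a value, 12 were above 0 and 2 below, against 51.5% of all genes above 0. None of the 14 passed 2-fold, and the median was 0.09. Il4, a type 2 cytokine that T cells make, was at 9.13 in the impaired array and 8.28 in the wildtype array (0.86). Il13ra1, the receptor chain through which IL-13 acts on the epithelium, was at 9.40 in the impaired array and 8.62 in the wildtype array (0.78). Il33, an alarmin that activates ILC2, differed by 0.54, and Klrg1, a receptor of ILC2 and of effector T cells, by 0.19. Stat6 (0.03) and Il4ra (0.08), which carry the IL-4 and IL-13 signal, were nearly level. Chosen after its value was seen, Il13 was at 7.24 in the impaired array and 7.14 in the wildtype array (0.11). Il17rb, the IL-25 receptor chain, which is counted among the 28 further tuft cell genes and not here, and was likewise chosen after its value was seen, was at 9.44 in the impaired array and 9.05 in the wildtype array (0.39). Areg and Il1rl1 had no probe set with 1 symbol.

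Other epithelial lists had larger medians in the same direction. Enterocyte genes had a median difference of 0.96 over 15 genes, all above 0. Goblet and Paneth cell genes had 0.86 over 13, also all above 0. Over all genes, 51.5% lay above 0 and 0.828% were at least 2-fold brighter in the impaired array. The linear signals of the 15 enterocyte genes summed to 28550 in the impaired array and 15721 in the wildtype array. Enterocyte differences ran from 0.29 to 1.77 and were led by Sis, Alpi, Slc5a1 and Lct. Enteroendocrine cells, the other sensory cells of this epithelium, had a median of 0.39 over 17 genes, with 14 above 0 and 3 at least 2-fold brighter. Chga, their granule protein chromogranin A, was at 9.84 in the impaired array and 8.35 in the wildtype array (1.496), and the hormone gene Cck at 9.58 in the impaired array and 8.43 in the wildtype array (1.15). Crypt stem cell genes had a median of 0.38 over 12 genes, with 11 above 0 and Olfm4 highest at 2.01. The tuft cell median of 0.30 was the lowest of these 5 epithelial medians, which was not tested and rests on probe sets near the floor. Over genes past the floor, the tuft cell and crypt stem cell medians were nearly equal, at 0.3855 and 0.394, and the enteroendocrine median was 0.547. Some genes of each list, such as Trpm5 and Smoc2, passed the floor only in the impaired array. These medians therefore depend in part on the direction of the differences. After intensity-dependent loess centring, the tuft cell and crypt stem cell medians over all genes with a value were 0.24 and 0.36. Whether the impaired sample held more epithelial RNA, and what part this had in the tuft cell differences, was not tested. In such bulk RNA, a different number of cells of one type and a different amount of RNA per cell cannot be told apart.

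**Figure D4:**
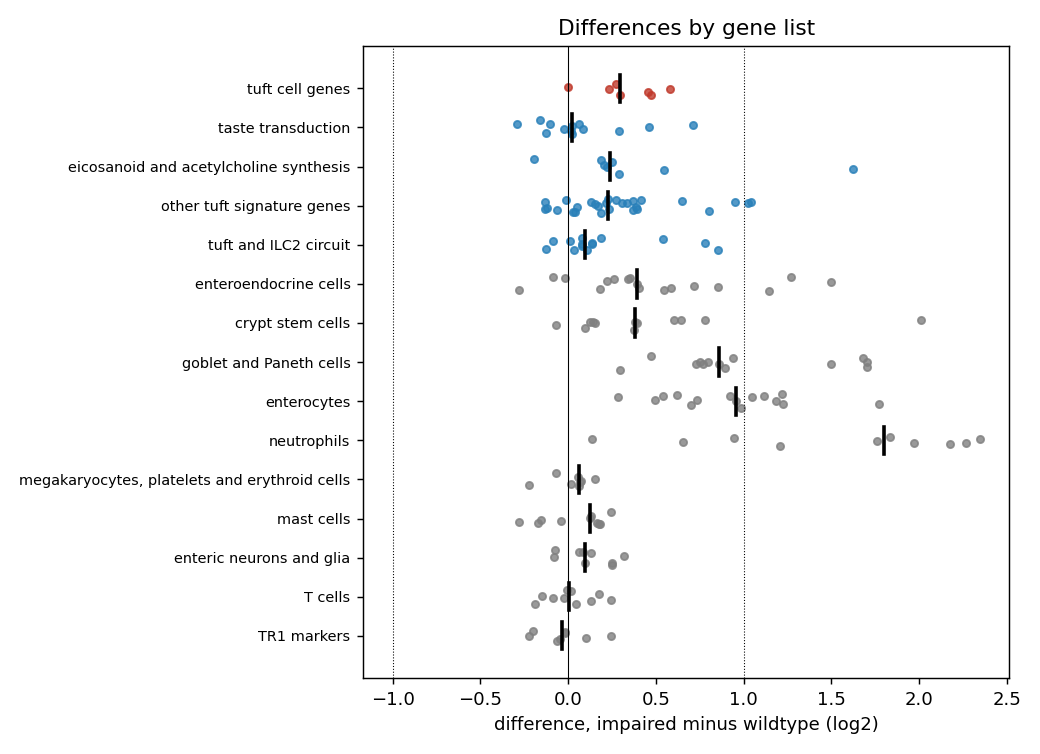
Difference between the arrays (impaired minus wildtype, log2, x axis) for every gene with a value in 15 lists, with 1 point a gene and a black bar at each list's median. The median of the tuft cell genes (red, 0.30) lies left of the enterocyte (0.96) and neutrophil (1.80) medians. It lies right of the T cell median (0.0045), and single genes of these lists overlap.

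Markers of the labelled cells were bright and nearly level. All 10 T cell genes with a value passed the floor, with a median difference of 0.0045 and a range from -0.19 to 0.24, and the 8 TR1 markers had a median of -0.03, which became 0.01 after intensity-dependent loess centring. Mast cells, which share eicosanoid enzymes with tuft cells, had 1 of 10 markers past the floor and a median of 0.13. Il10ra, the receptor chain from which a dominant-negative form is built, was at 12.30 in the impaired array and 9.92 in the wildtype array (2.38). Pearson's r between both arrays was 0.988, taken across 34760 probe sets that are no independent replicates of one another.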

How the data were processed

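RNA of TR1 cells was measured on 1 Affymetrix array per group, and both arrays were used. Extraction was with TRIzol LS, per the labels' protocols, and RNA was reverse transcribed from an oligo(dT) primer. Per the submitters' processing notes, the deposited log2 values come from affy and RMA, a method that corrects background, equalises the probe distributions and summarises probes into probe sets. The labels name no version and no genome build for these steps. Background signal left in dim probe sets can shrink their folds, which was not measured here.

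Of 34760 probe sets, 21640 had 1 symbol in the platform annotation, 1321 several and 11799 were not listed. A gene with several took the probe set with the highest mean of both arrays. All 7 measured members matched RefSeq by Entrez identifier with the same symbol. The 8 members and the other lists were chosen with earlier results of these data known. All members are named, and from each other list the 4 genes with the largest absolute differences and the 2 with the highest means could be named, besides Il10ra; others are marked. No replicate existed, so there was no test, and the number of arrays limits the precision. The counting rule and the loess step were tested on simulated data. Alternatives were loess centring (span 0.3), an offset of 32 on the linear scale, other choices of probe set, floors and a 1.5-fold rule. Python 3.11.15, numpy 2.4.6, pandas 2.3.3, statsmodels 0.14.6 and matplotlib 3.10.9 were used.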

Additional observations from a re-analysis of the deposited data

How the results depend on the processing

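The median of the 7 tuft cell genes, 0.30 as reported, was 0.24 after intensity-dependent loess centring and 0.24 with an offset of 32 on the linear scale. Over the 4 genes past the floor it was 0.39. Trpm5 (0.47) is among these 4 only through its impaired array, so the 0.39 depends on the direction of its difference. Leaving out 1 gene at a time gave 0.29 to 0.38. The count of genes above 0 was 6 under loess centring and under the offset, and the count past 2-fold, or past 1.5-fold, was 0. Il25 became -0.06 after loess centring. The 35 values of single genes under these alternatives moved by at most 0.11. The mean of probe sets, the dimmest probe set and probe sets with several symbols gave the reported values, because each gene had 1 probe set. With the floor at the 75th percentile 0 genes were left, so no value was computed. The median of the enteric neuron and glia list was -0.08 past the floor, where 1 gene was left. That of the TR1 markers was 0.01 after loess centring, and those of the taste and eicosanoid lists were 0.13 and 0.42 past the floor. A gene could pass the floor through its brighter array alone, so medians past the floor depend in part on the direction of the differences. No paired analysis was possible because each group held 1 array. Low signal over background limits every value of these genes.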
